A study of Mus musculus with 4 samples.

Results

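Scavenger receptors are cell surface and lysosomal proteins that bind modified lipoproteins, lipids, dead cells, microbes and matrix fragments and carry them into the cell. The 9 genes described here were taken from a list of names: the class A receptors Msr1 and Marco, the class B receptors Cd36, Scarb1 and Scarb2, and Cd68, Stab1, Lrp1 and Cd93. All probe sets that carry 1 of these symbols were used, which gave 18 probe sets for 9 of the 12393 genes with such a probe set on the array. The names were chosen without regard to direction, but with earlier results of these data known.

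The cells were macrophages sorted by flow cytometry from tumours of GIST mice, which develop gastrointestinal stromal tumour, a sarcoma of the gut wall. One group of mice had received vehicle and the other imatinib, an inhibitor of the kinases Kit, Pdgfr, Abl and Csf1r, at 600 mg/L in the drinking water, and tumours were taken after 2 weeks. Each group had 8 mice, whose cells were pooled by group, and each pool was measured on 2 Affymetrix arrays from 200 ng of RNA per array. The labels name neither the allele that drives the tumours nor the strain, the age of the mice or the markers of the sort. The design text calls the arrays duplicates of a pool and the titles call them biological replicates, so the p-values rest on array-to-array spread, possibly technical, and not on the spread between mice.

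Macrophages carry many scavenger receptors at once, and their levels differ with tissue and activation. Class A receptors are trimers with a collagen-like stalk that bind polyanions such as acetylated lipoprotein. Class B receptors have a large extracellular loop between a pair of membrane spans, and move lipids. Lipoproteins taken up whole through some of these receptors feed cholesterol and fatty acids into the lysosome, from which these lipids are stored, oxidised or exported.

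The table holds signals on a linear scale computed with MAS5, a method that corrects for background and brings all arrays to 1 mean level. Differences are given on the log2(signal + 32) scale, imatinib minus vehicle, with SE, and a probe set was called when limma's Benjamini-Hochberg adjusted p was below 0.05. Of 13576 probe sets bright enough to be tested, 842 were higher (6.20%) and 1002 were lower (7.38%), so that 45.66% of calls were higher. With array medians set equal 72.37% of calls were higher, and with the mean of 15 macrophage markers set equal 3.96% were. The first of these scalings moved the median difference of the tested probe sets from -0.010 to 0.17, and the second moved it to -0.36. The sort held its defining markers: Csf1r lay between 27103 and 31382 on the 4 arrays and Adgre1, which encodes F4/80, between 7639 and 10799.

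Of the 18 receptor probe sets, 17 were bright enough to be tested, and 11 of these were higher with imatinib against 6.20% of all probe sets tested, while 0 were lower against 7.38%. The 6 others were not called, among them 1 each for Cd36, Msr1, Scarb1 and Cd93, genes whose other probe sets were called at least once, and both for Scarb2. On 15 of the 17 both imatinib arrays lay above both vehicle arrays, which 26.5% of all tested probe sets did, and 0 of the 17 lay wholly below, which 28.1% did. Msr1 1425434_a_at, counted as called and as separated, had a vehicle mean of 81.9 and passed the filter (82.9) only through its imatinib arrays. By the brightest probe set of each gene, 7 of 8 tested genes were higher and 0 were lower, against 6.20% and 8.46% of 8156 genes. The median difference of the 8 genes was 0.59, against -0.021 over all genes tested. Fewer cells of a type and less RNA per cell cannot be told apart in such pools.

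**Figure D1:**
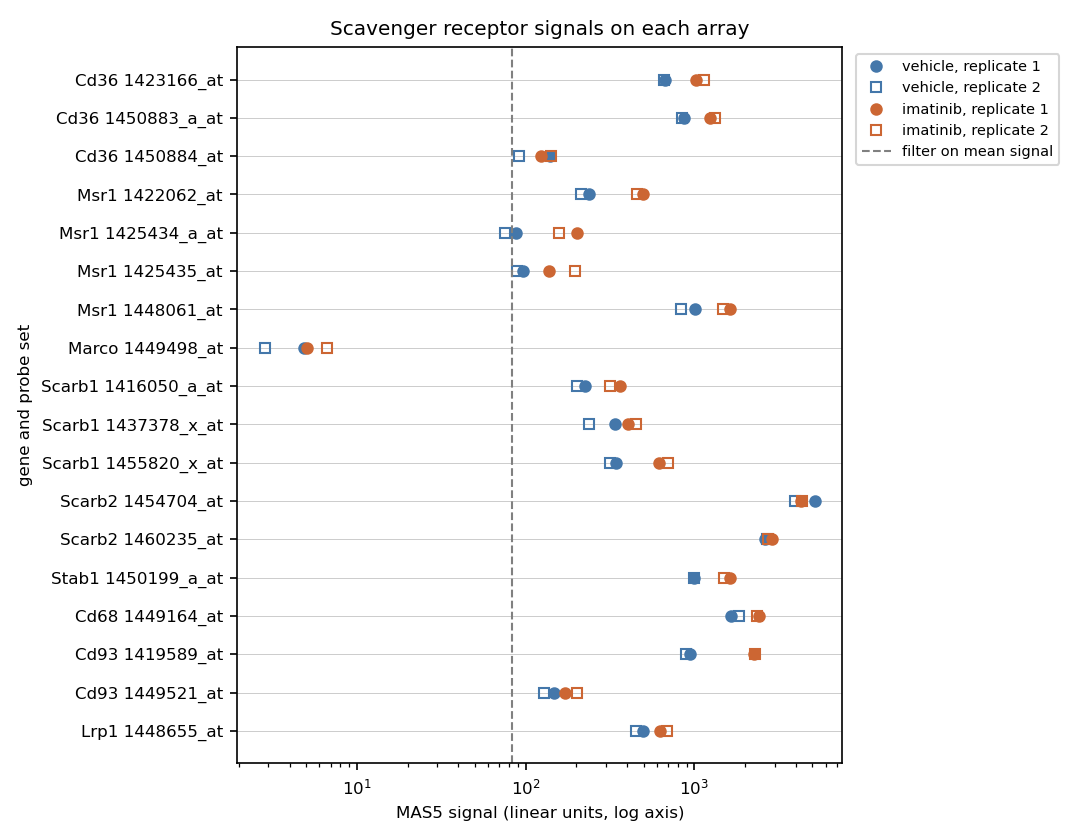
MAS5 signal (linear units on a log axis) of the 18 probe sets of the 9 genes on each of the 4 arrays, with vehicle in blue and imatinib in orange; circles are replicate 1, squares are replicate 2, and the dashed line is the filter on the mean signal (82.9). The imatinib arrays lie to the right of the vehicle arrays for most probe sets, the arrays of Scarb2 1454704_at and Cd36 1450884_at are mixed, and Marco lies at 6.70 or lower on all arrays.

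Promoter sequence was available for some members and is shown here because most of these genes moved the same way while Marco was below the filter and Scarb2 was not called. Sequences are from RefSeq, build GRCm38.p6, and hold the 250 bases before the annotated start, 5′ to 3′ on the gene's own strand, which is the minus strand for each of them. Entries were found for 6 of the 9 genes (Cd36, Marco, Scarb2, Stab1, Cd68 and Lrp1). The motifs searched on both strands were GAGGAA (the core of sites for the myeloid factor PU.1), GCAAT (a half-site of C/EBP factors), TGANTCA (AP-1) and TATAAA (the TATA box); no motif contains another. Capitals mark every match. The window of Cd68 lies at chr11:69666171-69666420, that of Stab1 at chr14:31168642-31168891 and that of Marco at chr1:120505025-120505274.
Cd68: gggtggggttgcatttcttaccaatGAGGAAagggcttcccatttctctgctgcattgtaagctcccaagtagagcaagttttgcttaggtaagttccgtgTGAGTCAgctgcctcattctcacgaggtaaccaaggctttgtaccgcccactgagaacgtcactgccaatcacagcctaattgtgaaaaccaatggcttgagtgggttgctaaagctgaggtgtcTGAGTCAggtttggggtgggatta
Stab1: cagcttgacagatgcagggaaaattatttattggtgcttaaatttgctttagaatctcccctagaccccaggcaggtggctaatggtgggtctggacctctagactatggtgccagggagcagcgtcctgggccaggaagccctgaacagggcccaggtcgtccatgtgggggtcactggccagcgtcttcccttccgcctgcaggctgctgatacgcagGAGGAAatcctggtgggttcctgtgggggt
Marco: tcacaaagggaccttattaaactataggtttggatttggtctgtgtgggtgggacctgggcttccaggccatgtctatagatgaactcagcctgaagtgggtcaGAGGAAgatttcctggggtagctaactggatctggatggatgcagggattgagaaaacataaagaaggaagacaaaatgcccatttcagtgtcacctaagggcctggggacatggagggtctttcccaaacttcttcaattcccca
GAGGAA was present in these 3 of the 6 windows and in 23.3% of 32851 promoters of the same length. Its first base lay 225 bases before the start in Cd68, 30 bases before it in Stab1 and 146 bases before it in Marco. The Cd68 window also held TGANTCA at 149 and at 24 bases before the start, a motif found in 6.75% of promoters. GCAAT was matched in 1 window, that of Lrp1 (23.1% of promoters), and TATAAA in 0 (12.4%). The windows of Cd36 and Lrp1, which were called higher, and of Scarb2, which was not called, held no GAGGAA. Marco was below the filter and has no difference to set beside its motif. Any link between the motifs and the differences was not tested.

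Msr1, the class A scavenger receptor of macrophages (CD204), takes up modified lipoproteins, apoptotic cells and bacteria. Its brightest probe set, 1448061_at, gave signals of 1012 and 828 with vehicle and 1617 and 1471 with imatinib. Both imatinib arrays lay above both vehicle arrays, and the difference was 0.73 ± 0.12 (SE, adjusted p = 0.0022), which is 1.66-fold on that scale. Probe set 1422062_at went from 239 and 213 to 494 and 459.9, the larger difference of 0.98 ± 0.15 (adjusted p = 0.00145). The 2 dimmer probe sets were near the filter (82.9). Of these, 1425434_a_at passed it only through its imatinib arrays, its mean being 81.9 with vehicle and 180 with imatinib. Probe set 1425434_a_at gave 87.9 and 75.8 with vehicle and 202 and 158 with imatinib (0.89, adjusted p = 0.031), a call that was lost whichever array was left out (adjusted p from 0.062 to 0.22). Probe set 1425435_at gave 97.1 and 89.0 against 138 and 197 (0.66, adjusted p = 0.11) and was not called, although its arrays did not overlap. All 4 probe sets of Msr1 therefore had both imatinib arrays on the higher side, by 1.68-fold to 2.20-fold in mean signal.

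Marco, the other class A receptor, marks marginal zone and alveolar macrophages. Its only probe set, 1449498_at, gave 4.90 and 2.86 with vehicle and 5.05 and 6.70 with imatinib. Its mean signal ranked at the 2.94th percentile of all probe sets, below the filter, so it was not tested and no fold is given.

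Cd36 binds long-chain fatty acids, oxidised lipoprotein, thrombospondin and apoptotic cells, and is also carried by endothelium, platelets, adipocytes and gut epithelium. Probe set 1450883_a_at gave 867 and 847 with vehicle and 1230.4 and 1324 with imatinib. The difference was 0.56 ± 0.10 (SE, adjusted p = 0.0049); without imatinib replicate 2 it was 0.51 and no longer called (adjusted p = 0.055). Probe set 1423166_at gave 669 and 659 against 1029 and 1144, a difference of 0.68 ± 0.11 (adjusted p = 0.0022). These 2 probe sets separated the groups by far more than the arrays of a group differed. The third, 1450884_at, gave 140.1 and 90.9 with vehicle and 124 and 141 with imatinib, so its arrays overlapped (0.18 ± 0.25, 95% interval -0.38 to 0.73), and its sign turned with the macrophage markers set equal (-0.17) or without vehicle replicate 2 (-0.065).

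Scarb1 encodes SR-BI, the receptor that exchanges cholesterol with high-density lipoprotein and that also binds apoptotic cells. Probe set 1455820_x_at gave 343 and 316 with vehicle and 620.3 and 702 with imatinib, a difference of 0.94 ± 0.13 (SE, adjusted p = 0.0010). Probe set 1416050_a_at gave 226 and 202 against 362 and 315 (0.59 ± 0.16, adjusted p = 0.039), a call that was lost without any of the arrays in turn (adjusted p from 0.067 to 0.24). Probe set 1437378_x_at gave 339.9 and 237 against 404 and 449 (0.53 ± 0.18, adjusted p = 0.077) and was not called; without vehicle replicate 1, the higher of the vehicle arrays, it was (0.77, adjusted p = 0.023). The groups did not overlap on any of the 3 probe sets. Names ending in _x_at mark probe sets some of whose probes may match other transcripts, so the largest difference of Scarb1 rests on such a set.

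Scarb2 encodes LIMP-2, a lysosomal membrane protein that carries glucocerebrosidase to the lysosome. It was the one tested gene of the 9 with no call. Probe set 1454704_at gave 5175 and 3935 with vehicle and 4293 and 4349 with imatinib, so both imatinib arrays lay between the vehicle arrays. Probe set 1460235_at gave 2627 and 2702 against 2872 and 2745, a separation smaller than the spread of its imatinib arrays. The differences were -0.062 ± 0.12 (95% interval -0.32 to 0.19) and 0.075 ± 0.084 (95% interval -0.11 to 0.26). The sign of the first turned with array medians set equal (0.14) and without vehicle replicate 1 (0.13), and that of the second with the macrophage markers set equal (-0.28).

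Cd68 encodes macrosialin, a heavily glycosylated late endosomal protein that is widely used to stain macrophages. Its only probe set, 1449164_at, gave 1639.7 and 1841 with vehicle and 2428 and 2363 with imatinib. The groups did not overlap, and the difference was 0.46 ± 0.09 (SE, adjusted p = 0.0092), or 1.37-fold. The call was lost without vehicle replicate 1 (adjusted p = 0.069), imatinib replicate 1 (0.076) or imatinib replicate 2 (0.053), while the difference stayed between 0.37 and 0.54.

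Stab1 encodes stabilin-1, a receptor of sinusoidal endothelium and of tissue macrophages that clears modified lipoprotein and the matrix protein Sparc. Its only probe set, 1450199_a_at, gave 992 and 999.8 with vehicle and 1631 and 1492 with imatinib. The vehicle arrays were nearly equal, and the difference was 0.63 ± 0.10 (SE, adjusted p = 0.0019), or 1.55-fold.

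Lrp1 is a giant endocytic receptor for apolipoprotein E, proteases bound to alpha-2-macroglobulin, and many other ligands, and is also abundant in fibroblasts. Its only probe set, 1448655_at, gave 499.9 and 453 with vehicle and 626 and 693 with imatinib. The difference of 0.44 ± 0.13 (SE, adjusted p = 0.044) was the smallest among the called receptor probe sets and lay just inside the threshold. It was not called without any 1 of the 4 arrays (adjusted p from 0.069 to 0.22), nor with the replicate number as a block (adjusted p = 0.058).

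Cd93, a lectin-like receptor once described as a receptor for C1q, takes part in the removal of apoptotic cells and in the adhesion of endothelium. Probe set 1419589_at gave 939 and 895 with vehicle and 2263 and 2276 with imatinib. The difference of 1.28 ± 0.09 (SE, adjusted p = 9.0e-06), or 2.43-fold, was the largest of the 17 and ranked 32nd among the 13576 probe sets tested. Its 95% interval, from 1.07 to 1.49, overlapped those of Scarb1 1455820_x_at and of the 3 Msr1 probe sets other than 1448061_at, and the order among them was not tested. The dimmer probe set 1449521_at gave 148 and 129 against 171 and 202. Its arrays did not overlap, but the difference of 0.36 ± 0.21 (95% interval -0.096 to 0.81, adjusted p = 0.31) was not called. With the macrophage markers set equal it was 0.0087 (adjusted p = 0.97). The rise of Cd93 thus rests on 1419589_at.

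**Figure D2:**
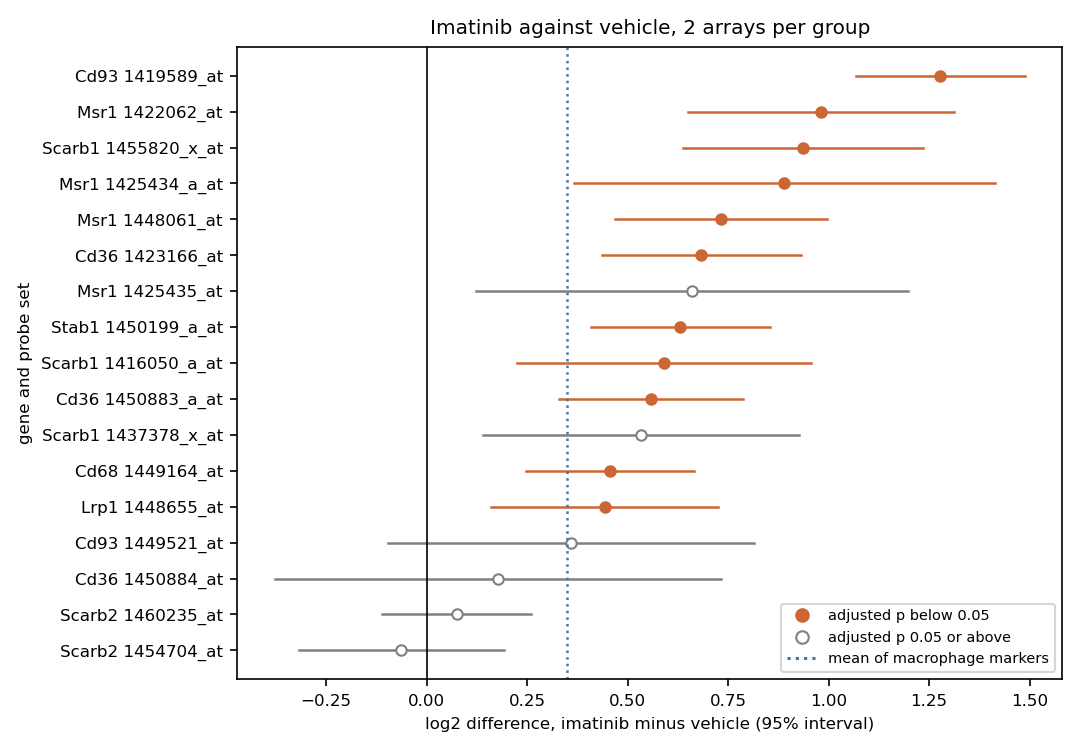
Log2 difference, imatinib minus vehicle, with its 95% interval for the 17 tested probe sets (2 arrays per group, limma), filled where the adjusted p was below 0.05; the dotted line is the mean difference of 15 macrophage markers (0.35). Differences run from -0.062 for Scarb2, whose sign turns with array medians set equal, to 1.28 for Cd93.

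Most markers of the macrophages themselves were also higher on the imatinib arrays, though not by a like amount. Of 15 identity markers 10 were higher and 0 lower, against 6.20% and 8.46% of all genes tested. Their median was 0.32 and their mean difference 0.35. The largest difference was that of Itgam (0.97), a dim marker at 88.3 and 64.3 with vehicle and 157 and 202 with imatinib. Its vehicle mean of 76.3 was below the filter (82.9), which it passed only through its imatinib arrays. The 5 others were not called and ran from -0.085 for C1qb to 0.12 for the defining marker Csf1r (adjusted p = 0.33). Their summed signal ran from 228720 to 231643 with vehicle and from 258845 to 269603 with imatinib. When their mean was set equal on all arrays, 6 receptor probe sets remained called as higher, against 1.63% of all tested: Cd93 1419589_at (0.93), Msr1 1422062_at (0.63) and 1448061_at (0.38), Scarb1 1455820_x_at (0.59), Cd36 1423166_at (0.33) and Stab1 1450199_a_at (0.28). Cd68 (0.11, adjusted p = 0.35) and Lrp1 (0.093, adjusted p = 0.56) were no longer called. Both probe sets of Scarb2 were called as lower there (-0.41, adjusted p = 0.021, and -0.28, adjusted p = 0.022), on a scale on which 39.5% of all tested probe sets were lower. Relative to that mean, both imatinib arrays lay above both vehicle arrays on 11 of the 17 probe sets, below on 2 and mixed on 4, against 4.36% of all tested probe sets above and 72.4% below on that scale.

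Several members are also expressed outside macrophages, so the markers of those cells are given beside them. The counts stand against 6.20% of all genes tested higher and 8.46% lower, and lists this short hold few genes. Markers of other myeloid cells, which can also carry Cd36, Cd93 and Msr1, were called higher more often than lower. Of 6 monocyte markers 4 were higher and 0 lower (median 0.45), with F13a1 at 0.93 and Chil3 at 0.83, and their summed signal was 14236 to 14361 with vehicle and 16252 to 16471 with imatinib. Ccr2, which defines that list, was not called (-0.21, adjusted p = 0.25). Of 7 dendritic cell markers 3 were higher and 0 lower (median 0.69), with Cd209a at 1.48 and the defining marker Flt3 at 1.14, and the sum was 3788 to 3827 against 4555 to 4589. Flt3 cleared the filter (82.9) only because of its signal under imatinib, as its vehicle mean was 48.5 and its imatinib mean 142. Given such means, only a higher call was open to Flt3. The other defining marker, Zbtb46, was below the filter. F13a1, Chil3 and Cd209a were picked with their values in view. Of 4 neutrophil markers 1 was higher, of 5 NK cell markers 2, and of 7 T cell markers 0 were called in limma, with 0 at an unadjusted p under 0.05.

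All 12 epithelial markers were lower, with a summed signal of 37282 to 37779 with vehicle and 7175 to 7409 with imatinib; Krt8 fell from 9373 and 9653 to 1853 and 1867. Of 10 fibroblast markers tested 5 were lower, against 8.46% of all genes tested, with a sum of 6111 to 6706 against 2933 to 3342. Of 6 markers of GIST and interstitial cells of Cajal 4 were lower and 0 higher (median -0.64). Their defining marker Kit was at -0.64, and Ano1 was not called (-0.25). Of 3 smooth muscle markers 1 was lower and 0 higher, and of 6 B and plasma cell markers 1 was higher and 1 lower. Of 6 endothelial markers 0 were called in limma, and 0 had an unadjusted p under 0.05, with a sum of 1332 to 1498 against 1303 to 1304; Pecam1 lay between 92.8 and 114 and Cdh5 between 107 and 143 on the 4 arrays. In the platelet list Pf4, which macrophages also make, rose by 0.85 (3188 and 3207 to 5968 and 5618), and it made up most of the list's summed signal of 3576 to 3714 against 5925 to 6278. The 4 others did not move with it: Itga2b (-0.37) and Gp1bb (-0.52) were not called, and Ppbp (52.9 and 43.5 against 34.5 and 29.1) and Gp9 were below the filter; the list median was -0.37. The 4 adipocyte markers on the array were all below the filter, with sums of 145.6 or lower. RNA quality also moved with the groups: for Gapdh the 3′ control signal exceeded the 5′ one by 2.91-fold and 2.76-fold on the vehicle arrays, and by 2.34-fold and 2.09-fold on the imatinib arrays. For Actb the excess was larger, at 3.99-fold and 3.58-fold with vehicle and 3.06-fold and 2.71-fold with imatinib. The part of these other cells and of RNA integrity in the receptor differences was not tested.

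The wider family was read from lists chosen with earlier results of these data known, with 1 value per gene from its brightest probe set. Of 20 other scavenger receptors 15 were on the array and 7 were bright enough to be tested; 3 of these were higher and 0 lower, against 6.20% and 8.46% of all genes tested, with a median of 0.36. With the macrophage markers set equal 2 were higher and 2 lower, with a median of 0.014. On that scale 1.63% of all tested probe sets were higher and 39.5% lower, with a median of -0.36. Without vehicle replicate 2 the median of the 7 receptors was 0.23. The mannose receptor gene Mrc1 went from 4014 and 4120.1 to 10755 and 9889 (1.34 ± 0.08, SE, adjusted p = 1.8e-06). Clec7a, which encodes the beta-glucan receptor dectin-1, went from 8121 and 8907 to 14824 and 13632 (0.74 ± 0.08). The hyaluronan receptor gene Cd44 rose by 0.36 ± 0.09 (adjusted p = 0.025), a call that was lost whichever array was left out (adjusted p from 0.054 to 0.15). The 8 below the filter included Olr1, Stab2, Colec12 and Cd5l, with signals of 91.1 or lower on all arrays. The haemoglobin receptor gene Cd163 gave 244 and 84.9 against 338 and 251 (0.85, adjusted p = 0.13) and was not called. Cd163 and the 4 dim genes lie outside the naming rule and were picked with their values in view.

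Among ligands of the receptors 0 of 13 tested genes were higher and 6 were lower, again against 6.20% and 8.46% of all genes, with a median of -0.35. The median was -0.70 with the macrophage markers set equal (10 lower) and -0.18 with array medians set equal (2 higher). On the first of these scales 39.5% of all tested probe sets were lower, with a median of -0.36. On the second 1904 of 13576 were higher, with a median of 0.17. Apob, the apolipoprotein of low-density lipoprotein and a product of gut epithelium, fell from 353.1 and 352 to 76.9 and 64.5 (-1.91 ± 0.20, SE, adjusted p = 1.1e-04). A2m, a protease trap cleared by Lrp1, fell from 404 and 366 to 123 and 125 (-1.42 ± 0.17). Sparc, the matrix protein cleared by stabilin-1, fell from 1561 and 1724 to 819.9 and 749 (-1.04 ± 0.11). The basement membrane collagen gene Col4a1 was lower by -0.67 ± 0.14, a call lost without vehicle replicate 1 or imatinib replicate 1 (adjusted p = 0.071 and 0.086). On the same arrays epithelial markers had a median of -2.33 and fibroblast markers one of -0.95, and their part in these falls was not tested. The macrophage ligand Apoe, at 25356 to 26967 with vehicle and 28159 to 29473 with imatinib, was not called (0.14, adjusted p = 0.23); it lies outside the rule for named genes and was chosen after its values were seen.

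Among adaptors, chaperones and cargo 4 of 12 tested genes were higher and 0 lower, against the same 6.20% and 8.46%, with a median of 0.026. With the macrophage markers set equal 1 was higher and 5 lower (median -0.32). Of all tested probe sets 1.63% were higher and 39.5% lower on that scale, with a median of -0.36. Without imatinib replicate 1 or imatinib replicate 2 only 2 were higher, and without vehicle replicate 1 the median was 0.11. Dab2, an endocytic adaptor of lipoprotein receptors, went from 2037 and 2141 to 3461 and 3217 (0.67 ± 0.09, SE, adjusted p = 5.3e-04). The clathrin heavy chain gene Cltc rose by 0.39 ± 0.07. Tlr4, which signals together with Cd36, rose by 0.51 ± 0.12, and its call was lost without vehicle replicate 2, imatinib replicate 1 or imatinib replicate 2 (adjusted p from 0.056 to 0.14). Tlr2 was called at 0.32 ± 0.09, was lost without vehicle replicate 1, imatinib replicate 1 or imatinib replicate 2 (adjusted p from 0.15 to 0.29), and turned to -0.031 with the macrophage markers set equal.

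Of 13 regulators tested 4 were higher and 1 lower, against 6.20% and 8.46% over all genes, with a median of 0.22. Leaving out any 1 of the 4 arrays gave 2 higher and 0 lower, and without vehicle replicate 1 the median was 0.13. With the macrophage markers set equal 2 were higher and 2 lower (median -0.13). That scale had 1.63% of all tested probe sets higher and 39.5% lower, with a median of -0.36. Cebpb, a factor of macrophage activation, went from 5093 and 6163 to 13521 and 12307 (2.30-fold on the log2(signal + 32) scale, adjusted p = 1.83e-05). Cebpa went from 1493 and 1741 to 2954 and 2701 (0.80 ± 0.10). Mitf rose by 0.45 ± 0.12, and Srebf1, a factor of lipid synthesis, was lower by -0.38 ± 0.10; both calls were lost whichever array was left out (adjusted p from 0.078 to 0.21 for Mitf and from 0.066 to 0.15 for Srebf1). Nuclear receptors that switch on Cd36 and cholesterol export were not called: Pparg gave 376 and 370 against 311 and 269 (-0.33, adjusted p = 0.19), and Nr1h3, which encodes LXR-alpha, gave 143 and 126 against 108 and 109 (-0.24, adjusted p = 0.56). Nfe2l2, the remaining regulator called higher, went from 7195 and 7404 to 9070 and 8991 (0.31 ± 0.07, adjusted p = 0.018). With any 1 array left out only Cebpb and Cebpa stayed higher, so the Nfe2l2 call was lost. Pparg, Nr1h3 and Nfe2l2 lie outside the naming rule too, having been picked with their values in view.

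In the list of lipid handling after uptake 3 of 13 genes were higher and 0 lower, against 6.20% and 8.46% over all genes, with a median of 0.11. The median was 0.059 without imatinib replicate 1 and 0.17 without imatinib replicate 2, where 1 gene was also lower. With the macrophage markers set equal 1 was higher and 6 lower (median -0.24). Over all tested probe sets 1.63% were higher and 39.5% lower on that scale, with a median of -0.36. The 3 were Cyp27a1, the mitochondrial sterol hydroxylase (715 and 599 to 1117 and 1121, 0.74 ± 0.12, SE), and the cholesterol exporter genes Abcg1 (2948 and 3068 to 4427 and 4272, 0.53 ± 0.08) and Abca1 (7782 and 8428 to 11289 and 10649, 0.44 ± 0.08). With the macrophage markers set equal Abcg1 (0.18) and Abca1 (0.085) were no longer called. The 10 other genes of this list were not called.

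**Figure D3:**
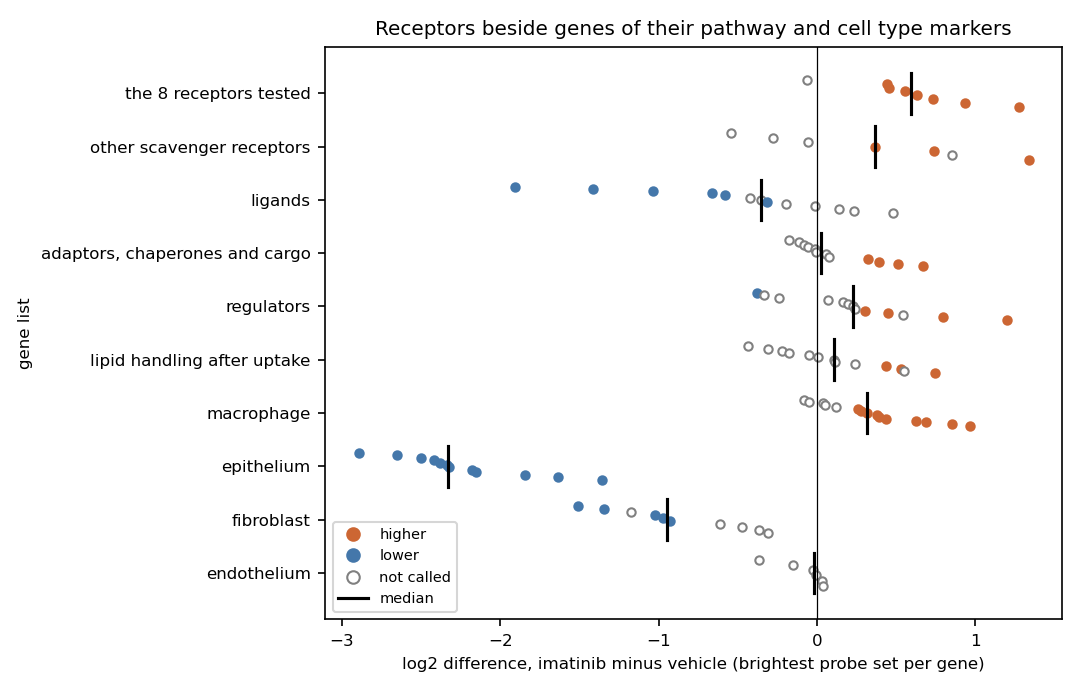
Log2 difference, imatinib minus vehicle, of the brightest probe set of each tested gene, for the 8 receptors, 5 lists of related genes and 4 lists of cell type markers; orange points were called higher, blue points lower, open points not called, and the bar is the median. The receptor median is 0.59, the ligand median -0.35, the macrophage marker median 0.32 and the epithelial marker median -2.33. With the macrophage markers set equal the medians of adaptors, regulators and lipid handling turn negative. The median of all tested probe sets is -0.36 on that scale.

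The calls of the receptors differed in how far they depended on the processing. Cd93 1419589_at was called under all 17 alternatives that tested it. Msr1 1422062_at, Cd36 1423166_at, Scarb1 1455820_x_at and Stab1 were called under all 16 that tested each of them. Msr1 1448061_at was called in 16 of 17, and missed without a mean-variance trend (adjusted p = 0.051). Cd68 was called in 11 of 17 and Lrp1 in 8 of 17. Other probe sets of Cd36, Scarb1 and Msr1 also lost calls: Cd36 1450883_a_at was called in 12 of 16, Scarb1 1416050_a_at in 7 of 15 and Msr1 1425434_a_at in 7 of 14. The probe sets of Scarb2 were called as higher in 0.

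**Figure D4:**
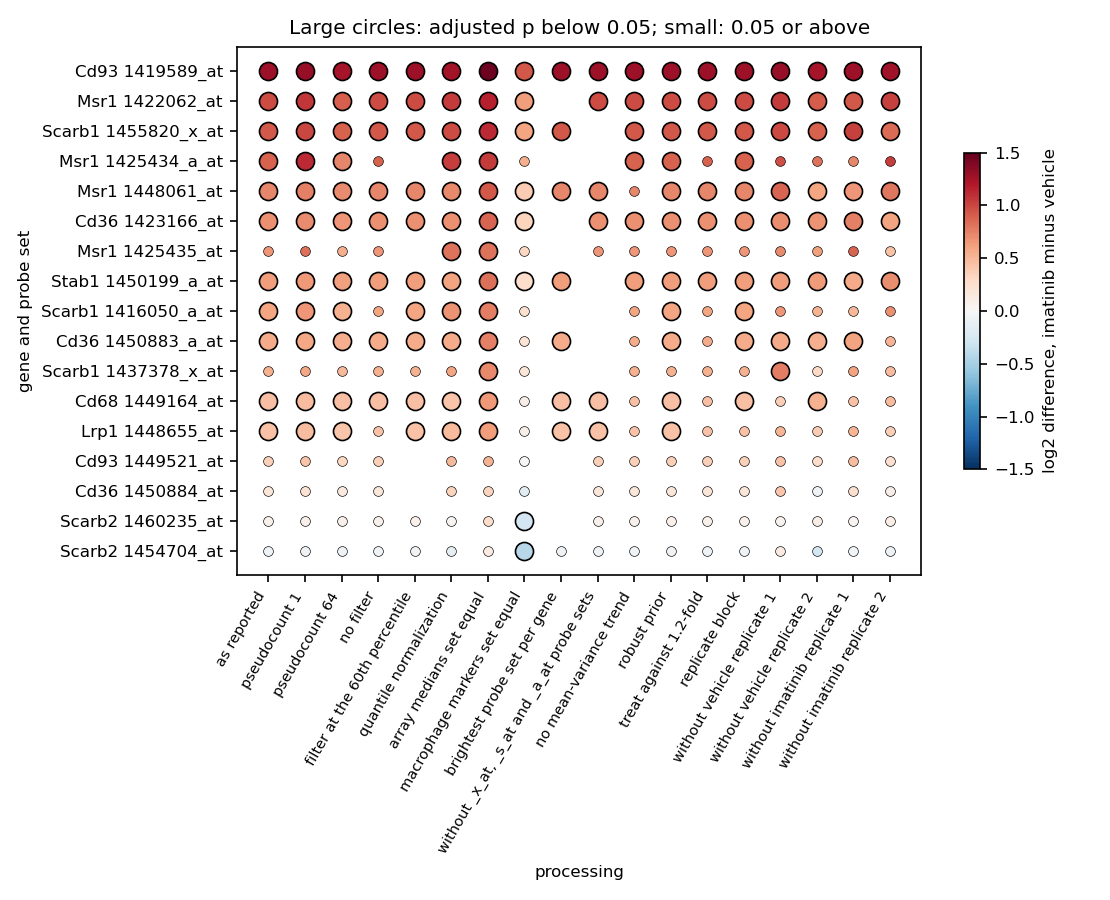
Log2 difference (colour) of the 17 receptor probe sets as reported and under 17 alternatives that test probe sets; large circles have an adjusted p below 0.05, small ones do not, and gaps are probe sets an alternative did not test. The brighter probe set of Cd93 keeps large circles in every column that tested it. The dimmer probe sets of Msr1, despite their sizeable differences, have small circles in many columns, as do Lrp1 and Cd68. Scarb2 turns blue and called with the macrophage markers set equal.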

How the data were processed

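The deposited table gives 1 linear intensity per probe set and array. The submitters' processing notes name MAS5 and Affymetrix Expression Console, without versions or settings. Means trimmed by 2% at each end were 500.3 on all 4 arrays. Of 22690 probe sets 64 were controls; the platform annotation paired 20380 of the 22626 others with a single gene symbol, and only these were named. Signals were transformed as log2(signal + 32), which understates changes of dim genes. Probe sets with a mean at or above the 40th percentile (82.9) were fitted with limma (lmFit, eBayes with trend, two-sided), adjusted over all 13576. That mean was taken over all 4 arrays, so a probe set dim in 1 group could pass through the other. A gene counts by its brightest probe set. The members and lists were chosen with earlier results of these data known. Text names all members and, per list, up to 4 called genes by size, or the 2 brightest where none was called, with exceptions stated. On simulated arrays of 13576 probe sets the procedure recovered 32% of 100 changed by 0.5, 87% of 100 changed by 1, and called 13 unchanged. Simulated probe sets of like signal level shared 1 variance, unlike those of the real arrays, so these rates may not hold there. The number of arrays limits the precision. Tools were R 4.3.3, limma 3.58.1, Python 3.11.15, pandas 2.3.3 and matplotlib 3.10.9.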

Additional observations from a re-analysis of the deposited data

How the results depend on the processing

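The alternatives were pseudocounts of 1 and 64, no filter and a filter at the 60th percentile, quantile normalization, equal array medians, equal macrophage markers, 1 value per gene (its brightest probe set or the mean over its probe sets), probe sets without _x_at, _s_at or _a_at, no mean-variance trend, a robust prior, treat against 1.2-fold, the replicate block, and each array left out. Higher receptor probe sets numbered 11 as reported and 6 with the macrophage markers set equal (2 lower), without _x_at, _s_at and _a_at sets (11 tested), without a trend, or with treat. Higher receptor genes numbered 7 as reported, 4 with the macrophage markers set equal (1 lower) or treat, and 3 without a trend. Over all probe sets, higher and lower calls numbered 434 and 635 without a filter (more tested), 221 and 5363 with the macrophage markers set equal, 262 and 640 without a trend, and 209 and 503 with treat; 1904 were higher with array medians set equal, and 609 lower without _x_at, _s_at and _a_at sets (8666 tested). Leaving out 1 array gave 6 to 8 receptor probe sets, 4 to 6 receptor genes, and over all probe sets 318 to 671 higher and 623 to 807 lower. Signs turned for Cd36 1450884_at (-0.17 with macrophage markers equal; -0.065 to 0.42 with an array left out, lowest without vehicle replicate 2), Scarb2 1454704_at (0.14 with equal medians; -0.26 to 0.13 with an array left out, highest without vehicle replicate 1), Scarb2 1460235_at (-0.28) and Tlr2 (-0.031), both with macrophage markers equal. Beyond fewer probe sets or arrays, the cause was not tested.

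With the replicate number as a block 763 probe sets were higher and 987 lower, and 10 receptor probe sets were higher, Lrp1 being the one lost. The numbers share only a label: deviations of replicate 1 correlated at -0.10 between the groups. Depth here is signal over background: Marco and the dim probe sets of Cd36 and Cd93 leave small changes undetectable.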
